A study of Homo sapiens with 16 samples.

Results

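The comparison set 5 lung cancer lines that are reported in the literature to carry SMARCA4 mutations (A427, A549, H23, H661 and H1703) against 3 lines reported with an intact gene (H358, H460 and H1437). Lines were assigned by the name in the array titles, and the mutation status comes from published reports on the lines and not from the labels. The mutated lines account for 10 of the 16 arrays of the series and the intact lines for the other 6, so every array takes part. Each line was grown untreated in 2 ways: on plastic (2D), and on a thin Matrigel layer under medium with 2% Matrigel (3D), Matrigel being a basement membrane extract. One array was hybridised per line and culture on the Affymetrix U133 Plus 2.0 platform, which reads transcripts with sets of short probes. A mean of the 2D and 3D values stands for a line, so a comparison rests on 5 lines against 3.

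The lines are established cultures from different tumours. SMARCA4 status, histology and every other inherited or acquired difference between the 2 sets of lines cannot be told apart in this design. The tests measure the spread between lines, since a line has no replicate within a culture.

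SMARCA4 (BRG1) and SMARCA2 (BRM) are the alternative ATPase motors of the SWI/SNF complexes, which use ATP to slide and evict nucleosomes and so open enhancers and promoters. SMARCA4 is lost in a share of non-small-cell lung cancers, and some of these tumours also lose SMARCA2. Cells without SMARCA4 are known to depend on SMARCA2 for the remaining complex activity.

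Values are log2 ratios of an array to a reference that belongs to the probe set (its median over the 16 arrays, or a fixed minimum for dim probe sets), so 0 stands near the reference and one gene's value says nothing against another's. Since 10 of 16 arrays came from mutated lines, the reference of most genes lies near the mutated group. No call of presence accompanies the values, and a low ratio can stand for little RNA or for none. In bulk RNA of a line, fewer cells that express a gene and less RNA per cell cannot be told apart.

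SMARCA4 RNA was lower in every mutated line than in any intact line. The line means over its 7 probe sets that passed the filter were -3.09 in A427, -1.41 in A549, -0.24 in H23, -1.16 in H661 and 0.27 in H1703, against 1.98 in H358, 1.47 in H460 and 1.94 in H1437. The groups did not overlap, and the mutated lines spread widely, with A427 lowest and H1703 close to 0. The difference, mutated minus intact, was -2.92. An exact two-sided permutation test over 56 assignments of lines gave p = 0.0357. That is the smallest value for 5 against 3 lines when the smaller tail is doubled, as here. In the limma fit across all genes the SMARCA4 difference was not called (SE 0.71, adjusted p = 0.184). The 2D and 3D arrays of one line differed by at most 0.33 on the log2 scale. In A427, single probe sets differed by more than any other line: 4 of them lay between -5.08 and -4.18 and 2 others at -1.08 and -1.49. One probe set that passed was nearly flat (-0.12 between the groups), and 2 further probe sets were too dim to pass. Which part of the transcript each set reads was not analysed here. RNA remained near the reference in H1703 and H23, and the arrays do not show whether protein is made from it.

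SMARCA2 did not separate the groups. Its line means over 5 probe sets were -2.62 in A427, 0.86 in A549, -2.38 in H23, -1.33 in H661 and -1.78 in H1703, against 0.63 in H358, 1.81 in H460 and 0.86 in H1437. A427, H23, H661 and H1703 lay below every intact line, and A549 lay level with H1437 and above H358. The group difference was -2.55 with an exact two-sided permutation p of 0.107, and the limma fit gave an adjusted p of 0.265. One dim probe set ran the opposite way (0.51). A gene value taken from that set alone turned the sign, as happened with the set of highest mean and with sets of suffix s, x and a left out. In all, 4 of the 5 mutated lines had low readings of both ATPases relative to the intact lines, and A549 of SMARCA4 alone.

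**Figure D1:**
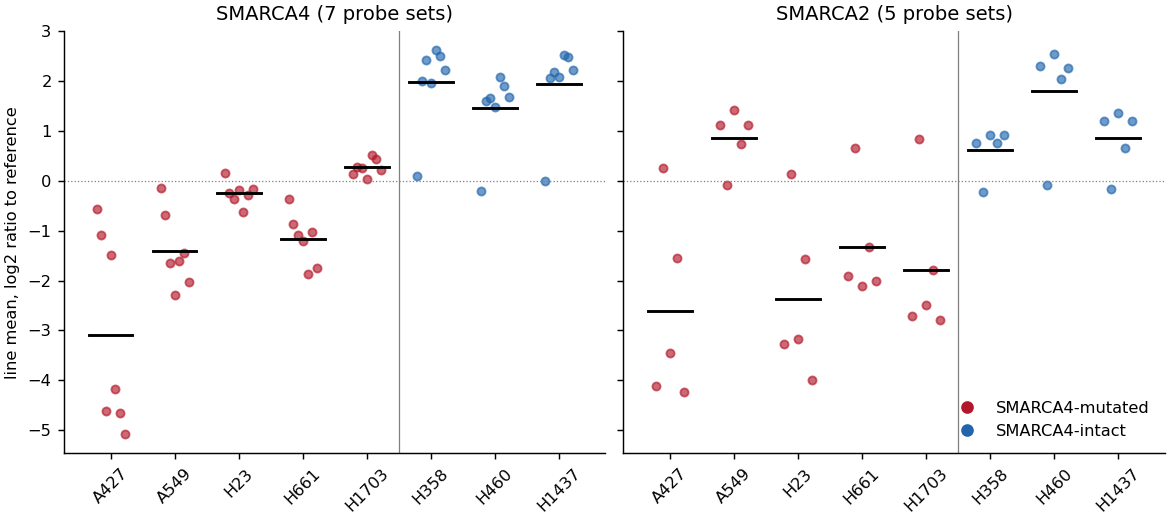
Line means (mean of 2D and 3D, log2 ratio to reference) of each probe set of SMARCA4 and SMARCA2 that passed the filter, by line. Points are probe sets, horizontal bars their mean, red marks SMARCA4-mutated and blue SMARCA4-intact lines. The SMARCA4 bars of the mutated lines end at 0.27 in H1703 and those of the intact lines start at 1.47 in H460, and for SMARCA2 the bar of A549 at 0.86 lies among the intact lines.

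Across the 14480 genes tested, limma called 30 between the groups at a Benjamini-Hochberg adjusted p under 0.05 (0.207% of genes tested). Of these, 9 were higher (0.0622%) and 21 lower (0.145%) in the mutated lines. An unadjusted p under 0.05 was reached by 1970 genes (13.6%), 1168 of them higher (8.07%) and 802 lower (5.54%). Differences ran from 1.79 to 7.73 among the genes called higher and from -9.66 to -2.26 among those called lower, beside a median of 0.09 over all genes. In all 30, the 10 mutated arrays did not overlap the 6 intact arrays. The genes were called on the means of these same arrays, so this gap is no further support. In 19 of the 21 genes called lower, every mutated line lay under 0.6. With 10 of 16 arrays mutated, the median of a gene whose groups do not overlap falls among its mutated readings. The scaling thus largely fixed this second count. Neither count is set against a share of all genes here, and neither is read as a result. CADPS2, CYP4X1, SCAT1, SDR16C5 and SERPINB5 rest on 1 dim probe set each, scaled to the fixed minimum and not to a median, and entered the test through the 6 intact arrays, all at a ratio of 1 or more. No mutated array reached that ratio for 4 of these genes and 1 of 10 did for CYP4X1. A gene of this kind could thus be tested only by being high in the intact lines. The narrow spread of its mutated readings is that of a dim signal. Dim sets of FOXA1, HOPX, MACC1 and NMNAT2 also passed the filter through the intact lines. Their line means lay under that ratio in every mutated line. The number of calls moved with the lines used: 122 genes were called without A549, which kept 30 of the 30, and 155 without H460, which kept 29. With each of the 8 lines left out in turn, 17 of the 30 calls were kept in all 8 fits, 1 in 7, and 12 in 5 or fewer. With a variance trend in eBayes no gene was called (2009 with an unadjusted p under 0.05), and with all 16 arrays and the line as a random block 223 were. That block fit gives every gene the same correlation between the arrays of a line (0.821). It counts the arrays of a line in part as replicates, so its count is no equal of the count on 8 lines.

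Genes called lower in the mutated lines included CLDN4 of the epithelial junction list and FOXA1 and HOPX of the lung list. The 12 with the largest differences are described first. S100P, a calcium-binding protein of the S100 family, read -2.20 in A427, 2.44 in A549, -2.25 in H23, -2.48 in H661 and -2.17 in H1703, against 7.76 in H358, 7.68 in H460 and 9.52 in H1437. The group difference was -9.66 (SE 1.20, adjusted p = 0.0315). A549 stood apart from the other mutated lines, more so in 3D (4.10) than in 2D (0.79), and still lay under all intact lines. The S100P call was kept in 2 of the 8 fits with a line left out. SERPINB5 encodes maspin, a serpin of epithelial cells, and read -0.94 in A427, -0.65 in A549, -1.01 in H23, -1.05 in H661 and -0.97 in H1703, against 8.09 in H358, 6.46 in H460 and 6.68 in H1437. Its difference was -8.00 (SE 0.36, adjusted p = 0.000195), and all its mutated readings come from a dim probe set. SELENBP1, a selenium-binding protein, read -0.74 in A427, 2.36 in A549, -0.90 in H23, -0.20 in H661 and -0.72 in H1703. The intact values were 6.10 in H358, 7.17 in H460 and 8.67 in H1437. A549 was again above the other mutated lines, through its 3D array (4.66). In 2D A549 read 0.06, near H661 at -0.06. SELENBP1 differed by -7.35 (SE 0.88, adjusted p = 0.0273), a call kept in 3 of the 8 fits.

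FOXA1, a pioneer transcription factor of lung, liver and other endodermal epithelia, read -0.27 in A427, -0.16 in A549, -0.48 in H23, -0.86 in H661 and -0.53 in H1703, against 3.11 in H358, 3.88 in H460 and 5.88 in H1437. The difference of -4.75 (SE 0.57, adjusted p = 0.0273) rested on 2 probe sets that gave -5.09 and -4.41, the latter from a dim set. The FOXA1 call was kept in 4 of the 8 fits with a line left out. CLDN4, a tight junction claudin, read 0.02 in A427, -0.42 in A549, -0.40 in H23, -0.28 in H661 and -0.19 in H1703, against 5.91 in H358, 3.30 in H460 and 5.55 in H1437. H460 had the lowest intact value, above every mutated line. The difference was -5.17 (SE 0.56, adjusted p = 0.0152), and the call was kept in 3 of the 8 fits. HOPX, a homeodomain protein without DNA binding that marks alveolar type I cells, differed by -4.57 (SE 0.35, adjusted p = 0.00275). The HOPX difference came mostly from a dim probe set (-8.49), which read -1.16 to -0.75 in the mutated lines. By line means that set lay above the reference only in the intact lines, and it entered the test through them. The other set gave -0.65 and did not separate the groups. In that set H1437 read -0.17, below every mutated line (-0.15 to 0.07).

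The other 6 of the 12 had differences of -6.79 to -4.73. FGF13, an intracellular fibroblast growth factor homologue, read -0.91 in A427, 0.08 in A549, -0.04 in H23, -0.95 in H661 and -0.44 in H1703, against 5.98 in H358, 7.89 in H460 and 5.13 in H1437 and differed by -6.79 (SE 0.60, adjusted p = 0.00549). The retinol dehydrogenase family gene SDR16C5 differed by -6.22 (SE 0.42, adjusted p = 0.00193), and CADPS2, which primes dense-core vesicles for release, by -5.23 (SE 0.30, adjusted p = 0.000714), both on a dim probe set read only in the intact lines at a ratio of 1 or more. For TRIP6, a LIM-domain protein of focal adhesions, the difference was -5.09 (SE 0.52, adjusted p = 0.0116), and A549 at 0.57 was the highest mutated line. ATP8A1, a phospholipid flippase, differed by -4.99 (SE 0.64, adjusted p = 0.0378), with the call kept in 3 of the 8 fits. HNMT, which methylates histamine, differed by -4.73 (SE 0.35, adjusted p = 0.00227), and its 3 probe sets gave -6.36 to -3.51.

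The gene with the smallest p was TMEM154, a transmembrane protein outside the 12 for size and named after its values were seen. It read -0.05 in A427, 0.04 in A549, -0.18 in H23, -0.38 in H661 and -0.20 in H1703, against 4.12 in H358, 4.31 in H460 and 4.44 in H1437, a difference of -4.45 (SE 0.16, adjusted p = 0.000106), and the spread within each group was 0.16 (SD). Both groups were tight and far apart. The other 8 genes called lower, also named after their values were seen, were MAOA (-3.80), which degrades monoamines, MACC1 (-3.58), a regulator of MET, CYP4X1 (-3.48), FABP6 (-2.88), a bile acid binding protein, NMNAT2 (-2.71), an enzyme of NAD synthesis, RNF19A (-2.49), a ubiquitin ligase, RAET1E (-2.26), a ligand of NKG2D, and the RNA gene SCAT1 (-4.38). CYP4X1 and SCAT1 are among the genes read by a dim probe set. Of 3 MACC1 sets 1 had its median at the reference, and of 3 NMNAT2 sets 2 did, the rest being dim. Of these 8 calls, RNF19A was kept in 2 and NMNAT2 and RAET1E in 3 of the 8 fits with a line left out, and the other 5 in all 8.

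**Figure D2:**
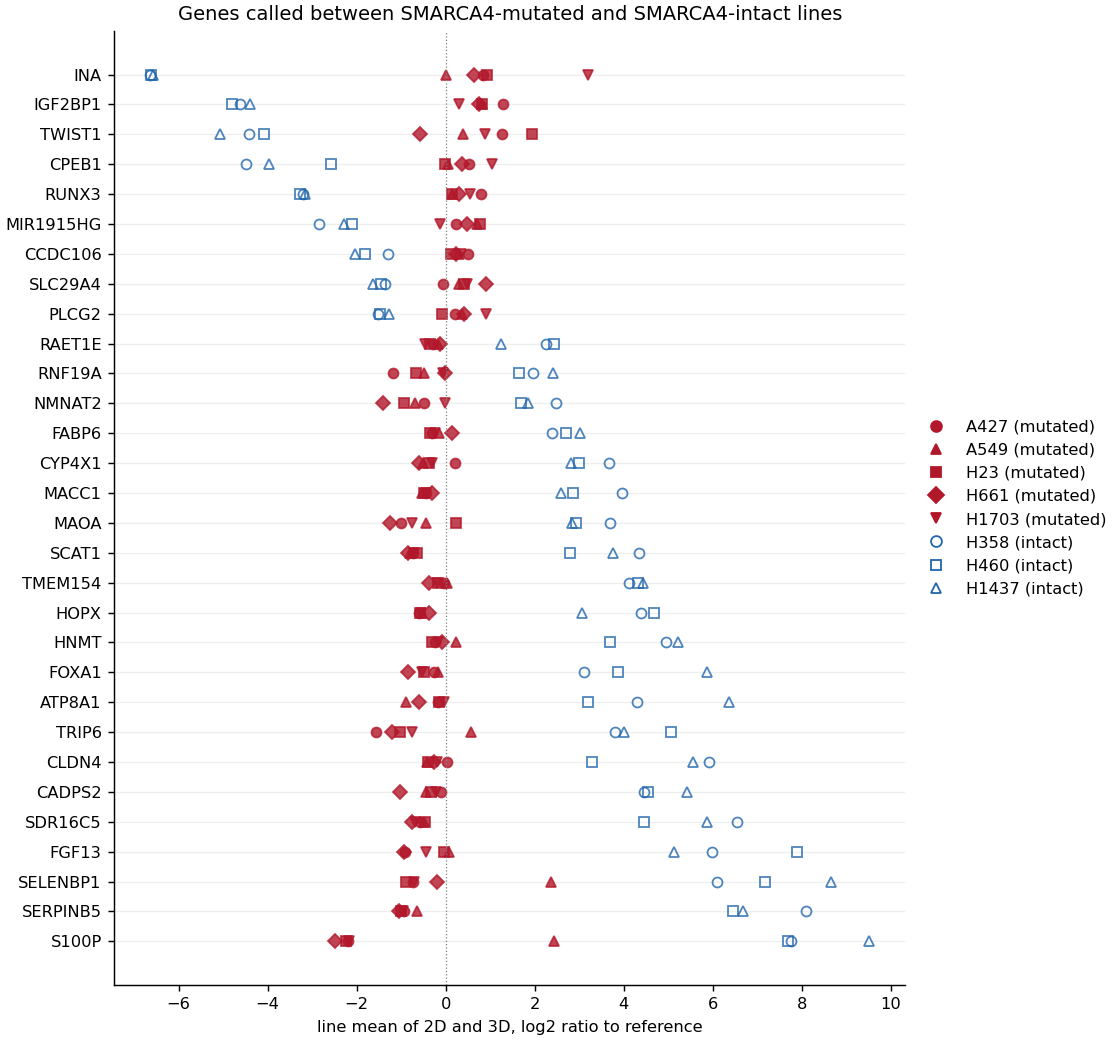
Line means (mean of 2D and 3D, log2 ratio to reference) of the 30 genes called between the groups, ordered by the difference. Filled red symbols are the 5 SMARCA4-mutated lines and open blue symbols the 3 SMARCA4-intact lines, with one symbol shape per line in each group. No red symbol overlaps a blue one in any gene, and the red triangles of A549 sit at 2.44 for S100P and 2.36 for SELENBP1, right of the other mutated lines.

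The upstream sequence of 3 of the genes called lower holds TGACTCA on one strand and so TGAGTCA on the other, the core bound by AP-1, a class of factors known to recruit SWI/SNF to enhancers. They are shown as a description. The motif was chosen after the calls were known, and its part in the genes' direction was not tested. The sequences were taken by their place before a gene start and not as enhancers. Sequences are the 250 bases before the gene start from RefSeq (GRCh38.p14), all on the plus strand, with the core in capitals. They lie at chr7:73830746-73830995 (CLDN4), chr7:100867137-100867386 (TRIP6) and chr2:137964223-137964472 (HNMT).
CLDN4: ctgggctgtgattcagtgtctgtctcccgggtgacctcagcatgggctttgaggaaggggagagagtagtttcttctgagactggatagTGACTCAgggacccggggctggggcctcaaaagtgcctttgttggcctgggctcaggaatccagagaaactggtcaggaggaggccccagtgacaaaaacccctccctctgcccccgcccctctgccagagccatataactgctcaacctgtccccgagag
TRIP6: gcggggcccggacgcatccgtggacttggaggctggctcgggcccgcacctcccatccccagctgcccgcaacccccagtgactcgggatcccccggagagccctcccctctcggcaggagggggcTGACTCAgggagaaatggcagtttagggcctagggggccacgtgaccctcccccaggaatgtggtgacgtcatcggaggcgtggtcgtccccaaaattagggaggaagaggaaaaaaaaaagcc
HNMT: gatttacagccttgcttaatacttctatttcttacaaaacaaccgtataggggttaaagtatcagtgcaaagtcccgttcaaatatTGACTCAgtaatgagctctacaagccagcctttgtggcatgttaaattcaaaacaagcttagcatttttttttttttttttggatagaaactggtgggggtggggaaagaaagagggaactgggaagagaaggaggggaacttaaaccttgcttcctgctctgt

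Both strands were searched, and the first base of the core lay 161 bases before the start in CLDN4, 124 in TRIP6 and 164 in HNMT. Of the 21 genes called lower, 16 had an upstream sequence in the table and 3 of these held the core (18.8%). Among 7 of the 9 genes called higher that had one, 0 held it. The share was 2.66% of 11580 tested genes and 4.16% of all 27305 sequences of the same length, the first listed start being used for a gene with several. With any base in the middle (TGANTCA), 4 of the 16 and 4.10% of tested genes had a match. The median number of CpG dinucleotides was 8 in both called groups and 20 among tested genes. The called genes thus differed from tested genes in sequence make-up as well, and the shares above are a description. A match of letters is no evidence of binding, and binding was not measured.

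The 9 genes called higher in the mutated lines include a neuronal filament, an RNA-binding protein and 2 transcription factors. INA, internexin alpha, a neuronal intermediate filament, read 0.83 in A427, 0.00 in A549, 0.94 in H23, 0.63 in H661 and 3.19 in H1703, against -6.64 in H358, -6.61 in H460 and -6.57 in H1437. The difference was 7.73 (SE 0.66, adjusted p = 0.00449). All 3 intact lines lay at the bottom of the scale, with 2 of the 6 intact arrays at the lowest ratio in the files (0.01). This limit of the values can make the difference smaller. It can also narrow the intact spread (SD 0.03) and so the SE. IGF2BP1, an oncofetal RNA-binding protein, read 1.29 in A427, 0.82 in A549, 0.83 in H23, 0.74 in H661 and 0.29 in H1703, against -4.62 in H358, -4.80 in H460 and -4.41 in H1437 and differed by 5.40 (SE 0.24, adjusted p = 0.000195), and its 2 probe sets gave 4.06 and 6.74. TWIST1, a transcription factor of mesenchymal cells, read 1.27 in A427, 0.40 in A549, 1.93 in H23, -0.59 in H661 and 0.89 in H1703, against -4.41 in H358, -4.08 in H460 and -5.07 in H1437. It differed by 5.30 (SE 0.55, adjusted p = 0.013), H661 had the lowest mutated value, and the call was kept in 5 of the 8 fits with a line left out.

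RUNX3, a Runt-family transcription factor, differed by 3.60 (SE 0.20, adjusted p = 0.000546), but its 3 probe sets ran from 0.03 to 6.20. CPEB1, which binds cytoplasmic polyadenylation elements, differed by 4.07 (SE 0.45, adjusted p = 0.0176), and the miRNA host transcript MIR1915HG by 2.83 (SE 0.27, adjusted p = 0.0091), with probe sets from 0.78 to 4.62. Smaller differences were found for CCDC106 (2.01, SE 0.20, adjusted p = 0.0116), the monoamine and nucleoside transporter SLC29A4 (1.89, SE 0.23, adjusted p = 0.0273) and PLCG2, a phospholipase C of immune receptor signalling (1.79, SE 0.23, adjusted p = 0.038). With a line left out, the call was kept in 5 of the 8 fits for CPEB1, 4 for SLC29A4 and 3 for PLCG2, and in all 8 for the other genes called higher apart from TWIST1. Outside the calls, the next genes whose groups did not overlap were the microtubule-severing KATNAL1 (1.64), PSPH of serine synthesis (1.49) and the kinase MAP3K12 (1.59), each with an adjusted p of 0.0523.

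With the called genes included, the groups did not overlap in 922 genes with higher line means in mutated lines (6.37% of genes tested) and in 433 with lower (2.99%). The split between directions depended on scaling: 68.0% of these genes were higher with the deposited values, 51.8% with each array centred on its median (670 higher, 623 lower) and 58.2% after quantile normalisation (720 higher, 517 lower). The calls themselves split as 11 higher and 23 lower after centring.

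Other SWI/SNF genes were not called. Of 26 core and accessory subunits, 25 were tested, 0 were called (limma; 3 higher and 1 lower at an unadjusted p under 0.05), and 3 of the 25 had higher readings in every mutated line than in any intact one, beside 8.07% higher and 5.54% lower at an unadjusted p under 0.05 and 6.37% not overlapping among all genes. Their median difference was 0.21 beside 0.09 for all genes. SS18, a subunit of the BAF form of the complex, read 0.54 in A427, 0.18 in A549, 0.10 in H23, 0.05 in H661 and 1.23 in H1703, against -0.77 in H358, -0.76 in H460 and -0.38 in H1437 and differed by 1.05 (SE 0.30, adjusted p = 0.241). BICRA, of the noncanonical form, differed by 0.58 (SE 0.18, adjusted p = 0.268), ARID1B by 0.68 (SE 0.28, adjusted p = 0.35) and SMARCD2 by -1.10 (SE 0.46, adjusted p = 0.356). Among 17 other remodelling ATPases, such as those of the CHD, ISWI and INO80 families, and 17 of 21 Polycomb genes, 0 were called either, with 0 and 2 genes at an unadjusted p under 0.05 and medians of 0.05 and 0.15; the first turned to -0.02 with centred arrays. Of 16 genes reported to need SWI/SNF for expression, 15 were tested, 0 were called and 2 had an unadjusted p under 0.05, both higher in mutated lines. These were VIM, the intermediate filament vimentin, with 3.04 (adjusted p = 0.242), and CCN1, a matrix-associated signal protein, with 1.91 (adjusted p = 0.291).

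Epithelial genes differed between the groups in a few members and between lines in many. Of 27 epithelial junction genes, 22 were tested and 1, CLDN4, was called (lower, beside 0.145% of all genes). The median difference of the list was -2.08. Its mean level was 1.31 in A427, -0.83 in A549, -0.25 in H23, -0.30 in H661 and -1.23 in H1703, against 3.18 in H358, -1.40 in H460 and 3.38 in H1437. H460, an intact line, had the lowest value of all lines, so the list separated H358 and H1437 from the rest and not the groups. Among keratins, 6 of 13 were tested and 0 called (2 lower at an unadjusted p under 0.05), with a median of -3.46. KRT19, a keratin of simple epithelia, read -3.84 in A427, 2.53 in A549, -3.19 in H23, -3.91 in H661 and -3.81 in H1703, against 7.91 in H358, 7.57 in H460 and 6.67 in H1437, a difference of -9.83 (SE 1.51, adjusted p = 0.0629). A549 was the single mutated line above the reference, and without it KRT19 passed (adjusted p = 0.00028; over 21 alternatives 0.00028 to 0.181, with 3 of them under 0.05).

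Among lineage genes, FOXA1 and HOPX were called of 16 tested of 24 lung genes (both lower, beside 0.145% of all genes), with a list median of -0.41. The HOPX difference came mostly from a dim probe set that passed the filter through the intact lines. Its count beside that share is therefore no support. Lung list means ran from -0.17 to 0.39 in mutated and from 0.34 to 1.20 in intact lines. Ratios to a reference do not show whether a lung marker is present at all. In the mesenchymal list, 1 of 23 genes (TWIST1) was called (higher, beside 0.0622% of all genes), and the line means overlapped (-0.64 to 1.31 in mutated lines, -1.07 to 0.90 in intact ones). At an unadjusted p under 0.05, 4 genes were higher and 2 lower, beside 8.07% and 5.54% of all genes. TGFBI ran the opposite way to TWIST1 (-6.30, limma adjusted p = 0.276). Neuroendocrine genes had 0 calls among 12 of 20 tested (2 higher at an unadjusted p under 0.05). Their median was 0.06, which turned to -0.01 with centred arrays. The line means of that list overlapped (-0.40 to 1.07 in mutated lines, -0.64 to 0.43 in intact ones). CHGB, chromogranin B of secretory granules, read 0.00 in A427, 3.10 in A549, 3.91 in H23, 0.95 in H661 and 2.38 in H1703, against -2.69 in H358, -2.24 in H460 and -2.30 in H1437 and differed by 4.48 (SE 0.86, adjusted p = 0.11). Markers of other cells were followed as well. The fibroblast list (9 of 11 tested) had a mean of 3.47 in H661 and 1.17 in H1703 and lay between -0.39 and 0.85 in the other lines; the leukocyte list (7 of 16) lay between -0.39 and 0.39 in mutated and between 0.35 and 0.85 in intact lines; the endothelial list (5 of 11) between -0.10 and 0.17 in all. These are readings of the cultured lines themselves, and their part in the differences was not tested.

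Pathway lists held no called gene among those described here. Of 25 mitotic genes, all tested, 0 were called, 9 were higher at an unadjusted p under 0.05 and 7 did not overlap between the groups, with a median of 0.55. Among all genes 8.07% were higher at that p and 6.37% did not overlap in this direction. The anaphase activator CDC20 differed by 1.71 (SE 0.40, adjusted p = 0.171) and the kinetochore gene NDC80 by 1.37 (SE 0.36, adjusted p = 0.215). For G1 cyclins, kinases and inhibitors, 18 of 19 were tested and 0 called (2 higher at an unadjusted p under 0.05). CCNE1, cyclin E1, read 1.24 in A427, 0.22 in A549, 1.02 in H23, 0.86 in H661 and -0.48 in H1703, against -1.55 in H358, -2.02 in H460 and -1.53 in H1437 and differed by 2.27 (SE 0.41, adjusted p = 0.0934). Hypoxia genes had 0 calls among 24 of 25 tested (6 lower at an unadjusted p under 0.05, beside 5.54% of all genes) and a median of -0.77, with list means of -0.86 to 0.39 in mutated and 0.50 to 0.90 in intact lines. EGLN3, a prolyl hydroxylase of HIF, differed by -4.20 (SE 0.67, adjusted p = 0.0672). Interferon-stimulated genes had 0 calls among 27 of 32 tested (6 lower at that p, beside the same 5.54%) and a median of -1.49. OAS1, which senses double-stranded RNA, read -4.82 in A427, 0.99 in A549, -2.47 in H23, -4.91 in H661 and -3.86 in H1703, against 2.12 in H358, 3.47 in H460 and 3.67 in H1437 and differed by -6.10 (SE 1.34, adjusted p = 0.149). H358 carried the highest mean of that list (3.02), and the other intact lines lay at 0.23 and 0.50, near H1703 at 0.39.

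NRF2 targets, the antioxidant genes held down by KEAP1, split the lines in another way. Of 24 genes, 23 were tested and 0 called (2 lower at an unadjusted p under 0.05), with a median of -1.58. Their mean was -0.81 in A427, 3.05 in A549, -1.02 in H23, -1.45 in H661 and -0.18 in H1703, against -0.48 in H358, 3.00 in H460 and 3.48 in H1437. A549 stood with H460 and H1437, and H358 with the other 4 mutated lines. AKR1C3, an aldo-keto reductase, read -3.49 in A427, 8.92 in A549, -3.52 in H23, -3.51 in H661 and -2.25 in H1703, against 0.91 in H358, 8.70 in H460 and 9.39 in H1437. Respiratory chain genes (26 of 30 tested) had a median of 0.04, which turned to -0.03 with centred arrays, and 0 were called (1 higher at an unadjusted p under 0.05).

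**Figure D3:**
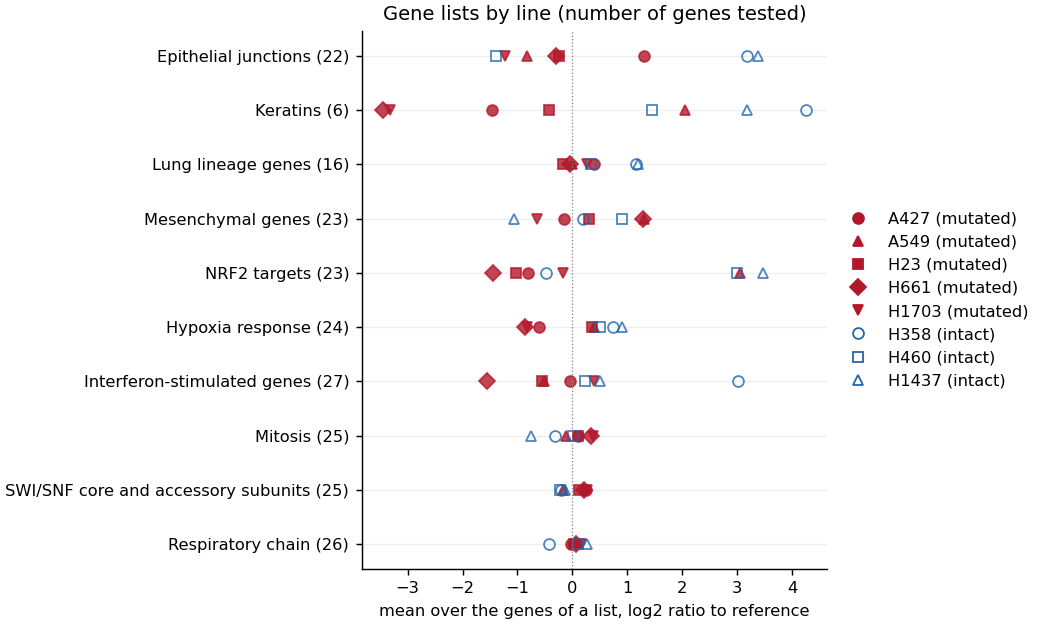
Mean over the tested genes of 10 lists in each line (mean of 2D and 3D, log2 ratio to reference), with the number of genes tested in parentheses. Filled red symbols are SMARCA4-mutated and open blue symbols SMARCA4-intact lines. H460 at -1.40 is the lowest line for epithelial junctions, and A549 at 3.05 lies with H460 and H1437 for NRF2 targets.

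Neither group of lines was uniform. Over tested genes, Pearson's r between line means of the 6 pairs of A427, H23, H661 and H1703 ran from 0.053 to 0.208. The 3 pairs of intact lines gave 0.019 to 0.321. A549 gave -0.170 to -0.085 with the other 4 mutated lines and -0.034 to 0.243 with the intact lines, the highest with H460. The line means share each probe set's reference, and these correlations are a description. Gene by gene, 2354 genes split the other 4 mutated lines from the intact lines, and in 999 of them (42.4%) A549 reached into the intact range. The corresponding share was 14.0% for A427, 16.8% for H1703, 21.0% for H23 and 31.4% for H661. Among intact lines, H460 reached into the mutated range in 1687 of the 3042 genes that split the other lines (55.5%), H358 in 43.6% and H1437 in 38.4%. Splits of 4 against 3 lines and of 5 against 2 differ in how many genes meet them, so counts are comparable within a group of lines.

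**Figure D4:**
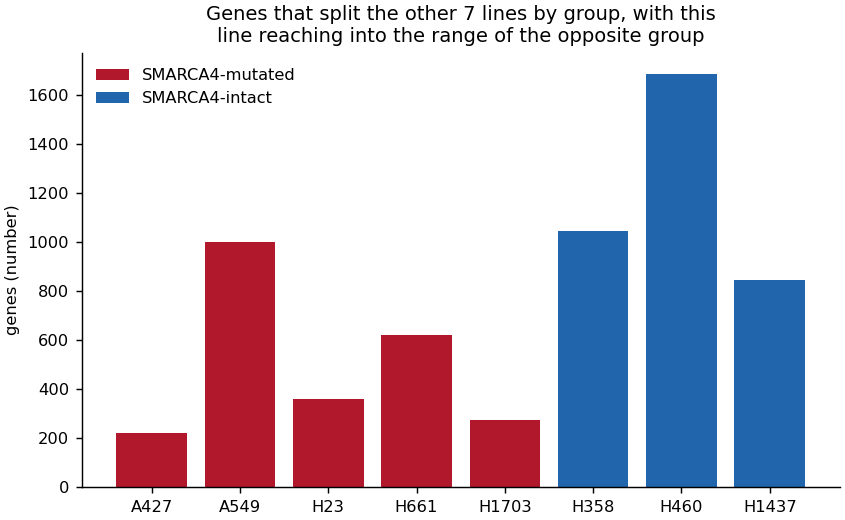
Number of genes in which the other 7 lines split by SMARCA4 group without overlap and the named line reached into the range of the opposite group. Bars are red for SMARCA4-mutated and blue for SMARCA4-intact lines. A549 has the tallest bar of the mutated lines (999 genes) and H460 of the intact lines (1687 genes).

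The second question was whether the groups responded differently to Matrigel, taken as the 3D minus 2D difference of each line. One gene, SHANK2, was called (0.00691% of genes tested), and 998 had an unadjusted p under 0.05. The responses of the groups did not overlap in 262 genes with higher (1.81%) and 472 with lower (3.26%) responses in mutated lines. With centred arrays these were 311 and 428. The median difference of response over all genes was -0.04.

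SHANK2 encodes a scaffold protein of synapses and epithelia. Its 3D minus 2D difference was 0.17 in A427, 0.04 in A549, -0.11 in H23, 0.23 in H661 and 0.01 in H1703, against 1.56 in H358, 1.61 in H460 and 1.35 in H1437. It was higher in 3D in every intact line and near 0 in every mutated line. In 2D the mean level was -1.60 in A427, 1.55 in A549, 1.25 in H23, -2.52 in H661 and -2.16 in H1703, against -0.98 in H358, -1.07 in H460 and 1.22 in H1437. Mutated lines with high and with low 2D readings both had small differences. The difference of responses was -1.44 (SE 0.14, adjusted p = 0.0453). Its 4 probe sets gave -1.89 to -0.42. The call was lost with each of the 8 lines left out (adjusted p from 0.105 to 0.287), with arrays centred (0.0735) or quantile normalised, and with the probe set of largest IQR or highest mean. Of the 11 alternatives that keep all lines, 3 kept the call.

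The remaining genes named for the difference of responses did not pass. DOCK10, a guanine nucleotide exchange factor, gave -0.72 in A427, -0.05 in A549, -0.17 in H23, 0.08 in H661 and -0.23 in H1703, against -1.41 in H358, -1.73 in H460 and -2.34 in H1437, a difference of 1.61 (SE 0.25, adjusted p = 0.359). STAT4, a transcription factor of cytokine signalling, gave 0.05 in A427, -0.26 in A549, 0.18 in H23, 0.00 in H661 and -0.01 in H1703, against -2.77 in H358, -0.86 in H460 and -2.00 in H1437 (1.87, SE 0.36, adjusted p = 0.666). PAM, which amidates secreted peptides, gave -0.36 in A427, 0.02 in A549, 0.27 in H23, -0.92 in H661 and -0.24 in H1703, against 0.98 in H358, 1.52 in H460 and 1.08 in H1437 (-1.44, SE 0.27, adjusted p = 0.666). For STAT4, whose probe set is dim and scaled to the fixed minimum, A427, H23, H661 and H1703 read -1.18 to -0.98 in both cultures, so a fall in these 4 lines could hardly have been read; A549 alone of the mutated lines read high, 3.60 in 2D and 3.34 in 3D. In DOCK10 and STAT4 the 3D reading was lower in each intact line, and in PAM it was higher, with mutated lines on both sides of 0 in all 3 genes. The neurotrophic ligand ARTN (1.06), the nucleosome-binding HMGN5 (1.13), the peroxidase family gene GPX8 (1.08) and CYS1, a cilium protein (1.14), had more positive responses in mutated lines. RAB36, a small GTPase (-1.27), the cAMP phosphodiesterase PDE4A (-0.88), INAFM2 (-1.24) and C19orf18 (-0.94) had more negative ones. Adjusted p-values of these 11 genes ran from 0.359 to 0.666.

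**Figure D5:**
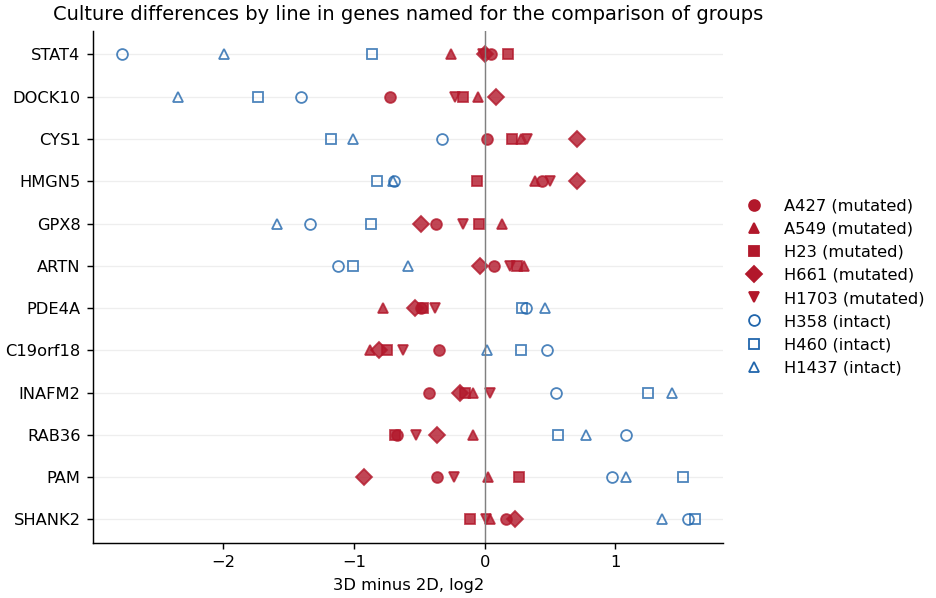
3D minus 2D difference (log2) by line for the 12 genes named in the comparison of responses. Filled red symbols are SMARCA4-mutated and open blue symbols SMARCA4-intact lines. In SHANK2 the 5 mutated lines lie between -0.11 and 0.23 and the 3 intact lines between 1.35 and 1.61.

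Within the groups, Matrigel changed few genes past the threshold. In the mutated lines limma called 0 genes (0% of genes tested, lowest adjusted p = 0.106), although 2630 had an unadjusted p under 0.05, 1731 of them lower in 3D. In the intact lines 2 genes were called (0.0138%), SHANK2 higher by 1.51 ± 0.13 (SD, n = 3 lines; adjusted p = 0.00414) and DOCK10 lower by 1.83 ± 0.47 (mean difference -1.83; adjusted p = 0.0493), with 2272 genes at an unadjusted p under 0.05. Neither ATPase responded in a way that separated the groups. SMARCA4 changed by 0.33 in A427, -0.17 in A549, -0.31 in H23, -0.21 in H661 and -0.31 in H1703, against 0.16 in H358, -0.31 in H460 and 0.02 in H1437, and SMARCA2 by 0.18 in A427, 0.41 in A549, -0.35 in H23, -0.09 in H661 and 0.24 in H1703, against -0.04 in H358, 0.10 in H460 and -0.25 in H1437, with exact two-sided permutation p of 0.536 for both.

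SHANK2 belongs to none of the gene lists, which are described by their medians. Mitotic genes had a median 3D minus 2D difference of -0.40 in mutated and -0.72 in intact lines, and DNA replication genes of -0.43 and -0.54. For hypoxia genes the medians were 0.50 and 0.75. Interferon-stimulated genes had 0.19 and 0.49. The median over these genes of each gene's own difference, mutated minus intact, was -0.44 (-0.22 after quantile normalisation), with 4 of 27 genes at an unadjusted p under 0.05, all lower in mutated lines, beside 4.37% of all genes. Antigen presentation genes had 0.07 and 0.42, with a median of gene differences of -0.36. SWI/SNF subunits had -0.10 and 0.03. Probes for 18S ribosomal RNA, which read the share of ribosomal RNA in the labelled sample, had a 3D minus 2D difference of -1.34 ± 1.25 (SD, n = 5) in mutated and -0.83 ± 0.76 (SD, n = 3) in intact lines (exact two-sided permutation p = 0.643), with H23 at -3.45 the farthest. Their part in the responses was not tested, beyond the fit with the 18S level as a covariate, in which 0 genes were called between the responses (1027 at an unadjusted p under 0.05).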

How the data were processed

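The authors deposited log2 ratios for 54675 probe sets on 16 arrays. By their values, 63.5% of probe sets were divided by their own median and the rest by a fixed minimum. The software used and any normalisation were not given in the sources used here. Names came from the platform annotation (41097 probe sets with 1 symbol, 1801 with several, 11777 with none). Probe sets with a ratio of at least 1 on 6 or more arrays were averaged per gene (14480 genes). The members and gene lists were chosen with earlier results of these data known.

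Line means and 3D minus 2D differences were compared with limma 3.58.1 in R 4.3.3 (lmFit, eBayes without a trend) with a call where the Benjamini-Hochberg adjusted p over all genes was below 0.05. Single values were compared with exact permutation tests over lines. The steps were tested on simulated data. Precision is set by the number of lines, as arrays have no read depth. Named were SMARCA4, SMARCA2, the 12 largest called genes in each direction of the line means and 6 of the responses, filled where short with the smallest p among genes whose groups did not overlap, and up to 4 genes a list by smallest p. Other genes are marked as named after their values were seen. Alternatives changed the probe set rule, filter, scaling, variance model, 18S covariate, cultures and lines.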

Additional observations from a re-analysis of the deposited data

Results flagged for a closer look

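Over 40 sets of 5 mutated lines (the line means or 3D minus 2D differences of the genes named by rule), 5 had a line apart from the others by Dixon's criterion. That criterion flags about 1 in 20 sets by chance. The genes were picked by these same values and share their lines, so the 5 sets cannot be held against that rate. A549 was the line apart in 3 of the 5 sets. Its line mean was 2.44 for S100P (0.79 in 2D, 4.10 in 3D), with the other mutated lines between -2.48 and -2.17. For SELENBP1 it was 2.36 (0.06 in 2D, 4.66 in 3D), with the others between -0.90 and -0.20. For SERPINB5, read there by a dim probe set, it was -0.65, with the others between -1.05 and -0.94. H661 stood apart for HOPX at -0.38, with the others between -0.59 and -0.54. This came from 2D (-0.16), as H661 read -0.60 in 3D, and mainly from the dim HOPX probe set (-0.75 in H661). A427 stood apart in the 3D minus 2D difference of SMARCA4 at 0.33, with the others between -0.31 and -0.17.

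The response to Matrigel differed between the groups by the test itself in SHANK2, by -1.44 (limma, adjusted p = 0.0453), with means of 0.07 in mutated and 1.51 in intact lines. In 4 other genes every mutated line moved one way and every intact line the opposite way, although the fitted difference did not pass. These genes had been picked because their groups did not overlap, which favours opposite signs. Some moves were near 0, such as CYS1 in A427 (0.02), RAB36 in A549 (-0.09) and C19orf18 in H1437 (0.02). CYS1 differed by 1.14 (means 0.31 and -0.84), RAB36 by -1.27 (-0.47 and 0.81), PDE4A by -0.88 (-0.53 and 0.35) and C19orf18 by -0.94 (-0.68 and 0.26), with limma adjusted p-values from 0.359 to 0.666.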

How the results depend on the processing

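No called gene of the line means turned its sign in any alternative, and 491 of 618 pairs of a called gene and an alternative kept the call. The 30 calls became 0 with a variance trend (limma, 2009 at an unadjusted p under 0.05), 63 with 2D arrays alone, 223 with 16 arrays and the line as a random block, and 23 to 155 with a line left out. The block fit counts the arrays of a line in part as replicates. The single call between responses became 0 (735 to 1289 at an unadjusted p under 0.05) with the probe set of largest IQR or of highest mean, no filter, arrays centred on medians, quantile normalisation, a variance trend, the 18S covariate and each line left out, and 0 without the line as a block (21 at an unadjusted p under 0.05). For mutated lines the 0 calls became 6 with the probe set of largest IQR and 3 with that of highest mean. For intact lines the 2 calls became 0 with the probe set of largest IQR or highest mean, quantile normalisation, a variance trend and no line block (187 to 2448 at an unadjusted p under 0.05), 1 with no filter, arrays centred on medians or robust eBayes, 4 without suffixes s, x and a, 6 with the 18S covariate, and 1 to 3 with a line left out. Where lines were left out, the fit had fewer lines, yet the calls of the line means rose to 122 without A549 and 155 without H460. Why the counts moved was not tested.

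The SMARCA4 difference stayed between -3.96 and -2.27 over 8 alternatives that keep all lines, and without suffixes s, x and a no SMARCA4 probe set was left to give a value. With a line left out it was -3.27 to -2.43 (exact two-sided permutation p from 0.0571 to 0.0952). With 4 against 3 or 5 against 2 lines this test, which doubles the smaller tail, cannot reach 0.05. SMARCA2 turned to 0.51 with the probe set of highest mean and without suffixes s, x and a, both of which leave 1 dim probe set to stand for the gene. With a line left out it was -3.13 to -2.19. Genes whose groups did not overlap numbered 1355 in all, 1293 with arrays centred on medians and 1237 after quantile normalisation, alternatives chosen after seeing the data. No paired analysis by replicate number was possible because the labels give no replicate numbers. Probes give no read depth, and a gene at the lowest ratio has only a bound.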
